A study of Homo sapiens with 16 samples.

Results

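Transcript levels in 786-O cells with SETD2 knocked out (KO) were compared with those in SETD2 wild-type (WT) 786-O cells while both were exposed to A1331852, a small molecule that blocks the pro-survival protein BCL-XL. The comparison used 6 of the 16 libraries of the study, 3 labelled KO and 3 labelled WT, chosen by their labels alone: all came from cells kept for 72 h in 100 nM A1331852, and all belonged to batch 1. A further 3 KO and 3 WT libraries from cells kept for 72 h in DMSO, the vehicle, served to test whether a genotype difference had another size without the inhibitor. Of the DMSO libraries, replicate 3 of each genotype belonged to batch 1 and replicates 1 and 2 to batch 2. 786-O is an established human line of clear cell renal carcinoma that lacks functional VHL, a defect that KO and WT cells share. The labels name 1 KO and 1 WT population and do not say whether either was a clone, so the effect of SETD2 loss and other differences between these populations cannot be told apart. Whether replicates were separate cultures is not stated either, so each p-value speaks only of the spread among these libraries, part of which may be technical.

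SETD2 is the methyltransferase that places the trimethyl mark on histone H3 along the bodies of transcribed genes, and it is often lost in this carcinoma. BCL-XL, encoded by BCL2L1, keeps the pore-forming proteins BAX and BAK1 of the mitochondrial outer membrane in check, and BH3-only proteins oppose it and its relatives. Nucleic acid in the cytosol is detected by CGAS, which signals through STING1, and by RNA sensors such as IFIH1, which signal through MAVS. Both routes lead to interferon, which acts through a complex that holds STAT2 and IRF9 on genes that carry an interferon-stimulated response element.

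Total counts ran from 14172118 to 18330094 in the KO libraries and from 16731360 to 21951773 in the WT libraries. The first principal component of the 6 libraries, 59.8% of the variance, separated the genotypes, and the second, 24.9%, set replicate 3 of both groups apart from the others. SETD2 itself (GRCh38, chromosome 3, 47016428 to 47164113) was at 29.4, 47.7 and 52.4 CPM in KO replicates 1 to 3, against 71.0, 68.4 and 63.1 CPM in WT replicates 1 to 3. All KO libraries lay below all WT libraries, and the counts were summed over all exons of the gene, so they do not show whether the transcripts that remain carry the edit. The log2 fold change was -0.65 ± 0.22 (SE), which did not pass the threshold (adjusted p = 0.0798, and 0.0158 with replicate number as a block). In DMSO SETD2 was at 30.0, 28.0 and 30.1 CPM in KO replicates, against 68.2, 70.4 and 65.1 CPM in WT replicates. PAX8, a transcription factor that marks renal epithelium, was at 260, 221 and 260 CPM in KO cells, against 180, 197 and 258 CPM in WT cells, and VIM, the mesenchymal filament vimentin, ran from 3415 to 3876 CPM in KO and from 4173 to 5029 CPM in WT libraries. Of markers of other cell types, 2 of 16 leukocyte, 1 of 10 endothelial, 4 of 11 fibroblast and 7 of 14 neuronal genes had enough counts to be tested. Their summed levels per library were 3.12 to 5.27 CPM in KO and 1.26 to 3.98 CPM in WT cells for leukocytes, 5.04 to 10.4 CPM and 0.584 to 1.71 CPM for endothelium, 10.1 to 18.5 CPM and 27.9 to 33.0 CPM for fibroblasts, and 63.8 to 79.8 CPM and 55.6 to 122 CPM for neurons.

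Under the inhibitor 2278 of 15266 tested genes (14.9%) differed between KO and WT cells at an adjusted p under 0.05 (edgeR quasi-likelihood test, Benjamini-Hochberg), 1078 higher in KO (7.06%) and 1200 lower (7.86%). A total of 1357 of them differed at least 2-fold, 679 higher and 678 lower, and 254 at least 8-fold, 165 higher and 89 lower. The median size of a called change was 1.18 on the log2 scale, and the median log2 change of all tested genes was -0.014. Of 12253 protein-coding genes 928 rose and 1037 fell (16%), of 1032 lncRNAs 75 and 73 (14.3%), and of 845 pseudogenes 21 and 31 (6.15%). Same-numbered KO and WT libraries deviated together, clearly so for replicate 3 alone. With replicate number as a block 4791 genes were called (31.4%), 2313 higher (15.2%) and 2478 lower (16.2%), including all 2278. The groups did not overlap in 2272 of the 2278 called genes and in 5342 (35.0%) of those tested. Leaving out 1 library gave 905 calls without KO replicate 2, 1149 without KO replicate 1, 955 without WT replicate 2, 1540 without WT replicate 1 and 3254 without WT replicate 3, and 754 genes were called in all 6 such fits. Calls of KO against WT under A1331852 named below held in each of these 6 fits unless the losing library is given. A gene said not to pass did not do so with all 6 libraries and no block.

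**Figure D1:**
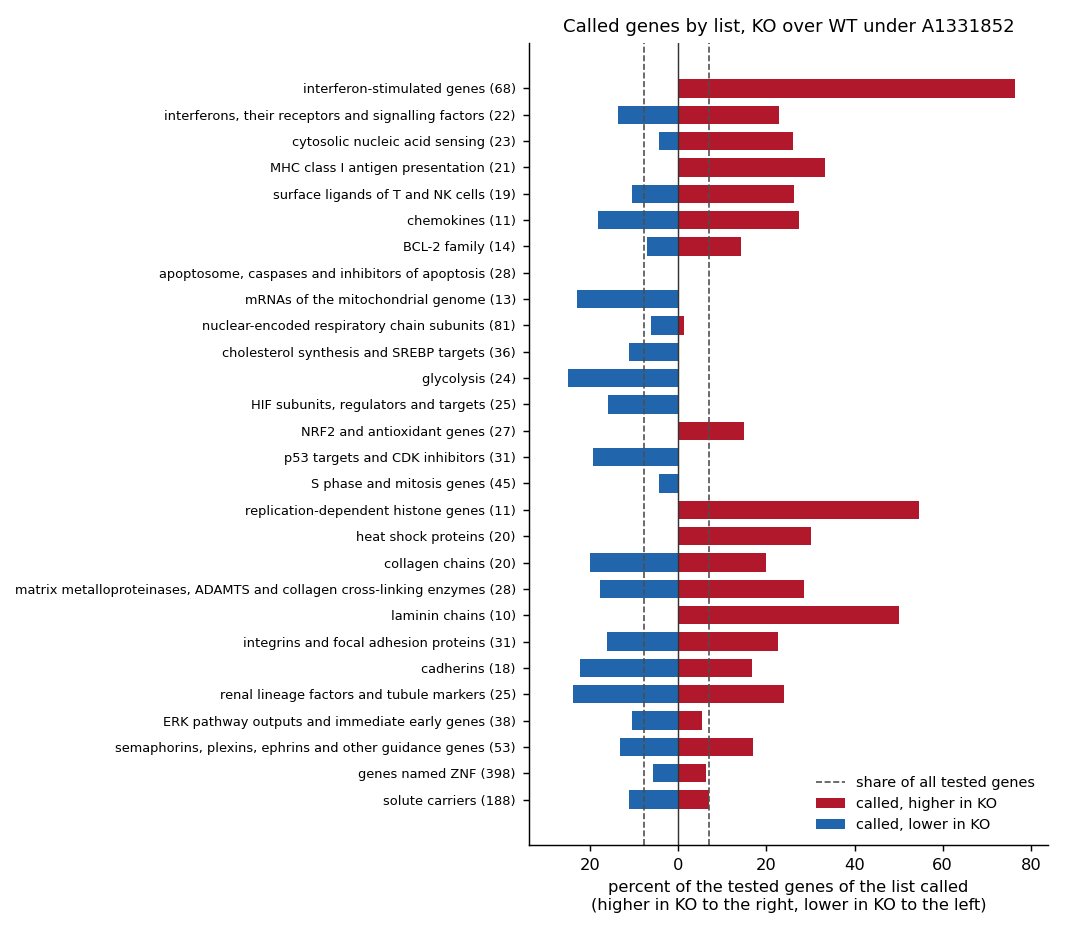
Percent of the tested members of each gene list (number tested in parentheses) called higher in KO cells (bars to the right) or lower in KO cells (bars to the left) than in WT cells under A1331852, with dashed lines at the shares of all tested genes, 7.06% and 7.86%. Interferon-stimulated genes reach 76.5%, all to the right, while no member of the list of caspases and inhibitors of apoptosis was called.

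Of the gene lists with at least 10 tested members, that of interferon-stimulated genes had the largest share of calls: 52 of 68 tested members rose in KO cells and 0 fell, with a median log2 change of 1.47. With replicate number as a block the counts were 61 and 1, and with a library left out 34 to 55 rose. OASL (chromosome 12, 121017763 to 121039246), an antiviral relative of the 2′-5′ oligoadenylate synthetases, was at 102, 119 and 96.6 CPM in KO cells, against 4.84, 5.13 and 6.73 CPM in WT cells. Every KO library was far above every WT library, and the log2 fold change was 4.25 ± 0.20 (adjusted p = 4.92e-05). RSAD2 (chromosome 2, 6865557 to 6898239), which encodes the antiviral enzyme viperin, was at 148, 267 and 202 CPM in KO cells, against 6.35, 9.80 and 14.6 CPM in WT cells (4.33 ± 0.35, adjusted p = 0.000233). The synthetase genes OAS1 and OAS2, whose products make the activator of RNase L, rose by 3.46 and 5.08 on the log2 scale. OAS2 was at 7.45, 38.2 and 20.4 CPM in KO cells, against 0.334, 0.899 and 0.673 CPM in WT cells. KO replicate 1 was also the lowest KO library for MX2, IFI44L, EPSTI1 and IFITM1, while the genotypes did not overlap for any of them. IFITM1, which blocks virus entry, had a log2 fold change of 4.76 ± 0.87 (adjusted p = 0.00878), with 4.74, 23.9 and 46.8 CPM in KO cells, against 0.223, 0.809 and 1.77 CPM in WT cells. APOL3, an interferon-induced apolipoprotein L, was steady within groups at 14.6, 21.9 and 17.5 CPM in KO cells, against 0.557, 0.719 and 0.489 CPM in WT cells (4.90 ± 0.29, adjusted p = 8.5e-05). ISG15, the ubiquitin-like modifier, was at 143, 236 and 231 CPM in KO cells, against 39.1, 58.5 and 49.1 CPM in WT cells, a log2 change of 2.05. Not every member moved: APOL1 had a log2 change of -0.67 (adjusted p = 0.00839 with the block, the member called lower there) and TNFSF10, the death ligand TRAIL, of -0.31, and neither passed with all 6 libraries and no block (adjusted p = 0.09 and 0.558). APOL1 passed without WT replicate 1 (0.0408).

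**Figure D2:**
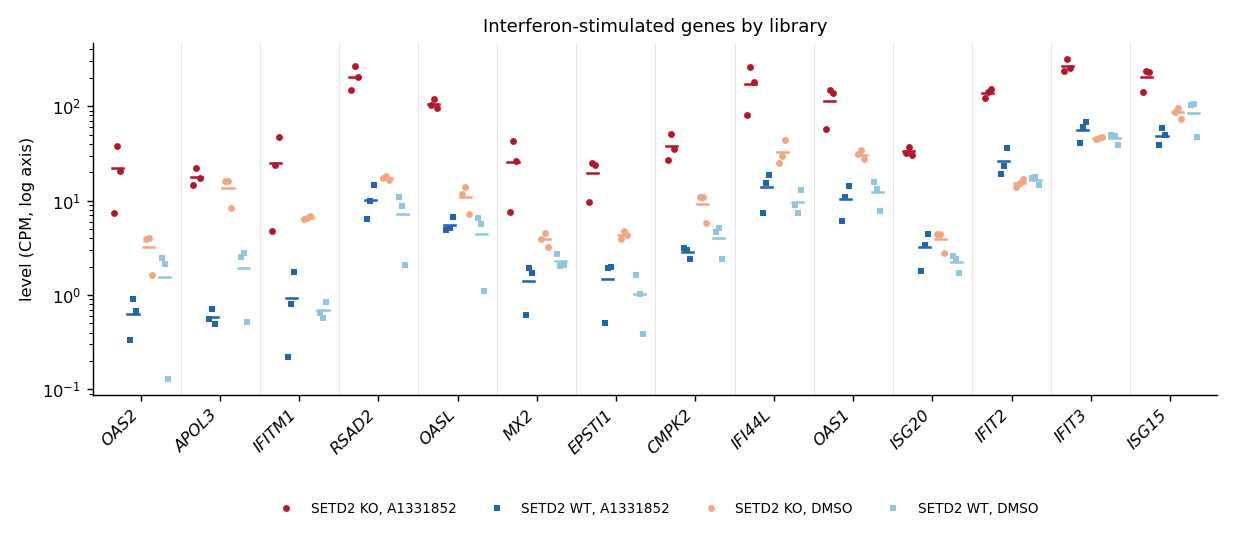
Level of interferon-stimulated genes in each library (CPM, log axis), from left to right for each gene KO and WT cells under A1331852 and KO and WT cells in DMSO, with 1 point per library and a bar at the group mean. OASL lies at 96.6 to 119 CPM in KO cells and at 4.84 to 6.73 CPM in WT cells under A1331852.

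The promoters of 44 of the called interferon-stimulated genes (250 bases before to 50 after the start, RefSeq, GRCh38.p14) could be searched for the letters GAAA, any 2 bases and GAAA again, the core of the interferon-stimulated response element, on both strands. They occurred in 29 of the 44 (65.9%) and in 6 of 8 promoters of tested list members that were not called (75%), so the letters did not separate called from uncalled members. They were found in 996 of all 27305 promoters (3.65%), in 311 of the 10779 promoters of tested genes (2.89%), in 63 of 805 of genes that rose (7.83%) and in 13 of 885 of genes that fell (1.47%). The promoters of 4 genes with large changes are shown 5′ to 3′ on the gene's strand, with the matches in capitals: IFITM1 (chr11:313790-314089, plus strand), where the second match begins 6 bases before the start and runs across it, EPSTI1 (chr13:42992192-42992491, minus strand), IFI44L (chr1:78620198-78620497, plus strand), where both matches have the same letters, and ISG20 (chr15:88638766-88639065, plus strand).
IFITM1: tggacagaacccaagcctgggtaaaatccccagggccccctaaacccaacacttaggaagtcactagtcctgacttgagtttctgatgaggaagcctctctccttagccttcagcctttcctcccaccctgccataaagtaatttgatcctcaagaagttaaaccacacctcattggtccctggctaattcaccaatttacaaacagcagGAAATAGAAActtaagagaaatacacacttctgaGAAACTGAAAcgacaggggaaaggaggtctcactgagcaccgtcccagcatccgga
EPSTI1: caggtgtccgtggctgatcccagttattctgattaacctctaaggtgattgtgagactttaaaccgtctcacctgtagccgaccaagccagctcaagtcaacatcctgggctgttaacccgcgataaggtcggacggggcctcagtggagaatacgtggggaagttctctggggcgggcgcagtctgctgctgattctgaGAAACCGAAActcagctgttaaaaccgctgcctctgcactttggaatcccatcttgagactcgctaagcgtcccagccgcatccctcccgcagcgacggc
IFI44L: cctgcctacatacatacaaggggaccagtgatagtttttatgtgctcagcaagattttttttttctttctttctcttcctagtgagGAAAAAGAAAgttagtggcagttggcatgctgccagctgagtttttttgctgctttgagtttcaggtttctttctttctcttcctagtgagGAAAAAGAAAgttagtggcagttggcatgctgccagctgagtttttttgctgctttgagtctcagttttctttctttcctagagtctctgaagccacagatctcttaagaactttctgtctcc
ISG20: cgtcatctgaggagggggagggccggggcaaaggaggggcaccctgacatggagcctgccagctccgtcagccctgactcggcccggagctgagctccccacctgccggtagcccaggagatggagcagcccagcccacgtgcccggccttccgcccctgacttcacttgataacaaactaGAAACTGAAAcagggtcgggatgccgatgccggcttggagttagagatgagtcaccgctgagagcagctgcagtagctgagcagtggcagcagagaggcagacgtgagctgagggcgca
The first base of the match lies at -50 in EPSTI1 and at -69 in ISG20, counted from the start, and at -164 and -73 in IFI44L. EPSTI1, an interferon-induced gene of epithelium and stroma, rose by 3.72 on the log2 scale. IFI44L rose by 3.65, with 80.6, 262 and 179 CPM in KO cells, against 7.35, 15.4 and 18.8 CPM in WT cells. ISG20, an RNA exonuclease, rose by 3.38, with 32.2, 37.2 and 30.5 CPM in KO cells, against 1.78, 3.37 and 4.47 CPM in WT cells.

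Upstream of these genes, the interferon ligands themselves were scarce. IFNL1, a type III interferon, had 4, 6 and 6 counts in KO cells and 0 in each WT library, and 0 in every DMSO library of either genotype. IFNB1, the type I interferon beta, had 1, 3 and 2 counts in KO cells, against 0, 1 and 0 in WT cells, too few to test, and IFNG had 0 in all. IFNE, an epithelial type I interferon, had 72 counts over the KO libraries and 27 over the WT libraries, a log2 change of 1.5 ± 0.48 that did not pass (adjusted p = 0.0683, and 0.0132 with the block). Of 22 tested interferons, receptors and signalling factors, 5 rose and 3 fell (8 and 3 with the block). With a library left out 2 to 5 rose and 1 to 2 fell. Centred on the chromosomal window medians described below, 3 rose and 1 fell. IRF7 (chromosome 11, 612553 to 615983), the transcription factor that amplifies interferon production, was at 27.8, 56.9 and 80.8 CPM in KO cells, against 3.56, 5.22 and 13.9 CPM in WT cells (2.88 ± 0.54, adjusted p = 0.00943). IRF1, another interferon regulatory factor, was at 84.2, 93.2 and 91.9 CPM in KO cells, against 36.1, 46.1 and 50.2 CPM in WT cells (1.02 ± 0.17, adjusted p = 0.00542). In the other direction, IFNLR1, the receptor chain of type III interferon, was at 0.905, 1.51 and 1.92 CPM in KO cells, against 6.35, 5.35 and 5.81 CPM in WT cells (-2.02 ± 0.32, adjusted p = 0.00449). Of the interferon-activated complex, STAT2 at 0.55 (adjusted p = 0.241) and IRF9 at 0.82 on the log2 scale (0.109, and 0.0358 with the block) did not pass.

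Sensors of nucleic acid in the cytosol, their adaptors and related nucleases gave 6 higher and 1 lower of 23, and 2 to 6 rose with a library left out. IFIH1 (chromosome 2, 162267074 to 162318684), the sensor of long double-stranded RNA, was at 57.9, 96.1 and 71.9 CPM in KO cells, against 15, 20.3 and 25.7 CPM in WT cells (1.89 ± 0.25, adjusted p = 0.00233). DDX58, which encodes the RNA sensor RIG-I, rose by 2.43 ± 0.52 (adjusted p = 0.0163, and 0.0683 without KO replicate 2). SAMHD1, a nucleotide hydrolase that restricts viruses, was at 130, 255 and 158 CPM in KO cells, against 51.1, 66.6 and 51.4 CPM in WT cells (1.68, adjusted p = 0.00408). All 3 are themselves interferon-inducible. The member that fell was MAVS, the adaptor of the RNA sensors, at -0.79 ± 0.15 (adjusted p = 0.00895). MAVS lies in a stretch of chromosome 20 where most genes were lower in KO cells, and relative to that stretch its adjusted p was 0.117. For DNA sensing, CGAS had a log2 change of 0.61 ± 0.19 (adjusted p = 0.0566, 0.0115 with the block and 0.0357 without KO replicate 3), and STING1 one of -0.19 (0.715).

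In antigen presentation by MHC class I, 7 of 21 members rose and 0 fell (15 and 0 with the block, 4 to 13 rising with a library left out). PSME2, a subunit of the proteasome activator, was at 123, 124 and 105 CPM in KO cells, against 52.3, 56.6 and 43.9 CPM in WT cells, a log2 change of 1.20. The immunoproteasome subunits PSMB8 and PSMB9 rose by 0.93 and 1.24, and NLRC5, the transcriptional activator of class I genes, by 1.17 (adjusted p = 0.0048, 0.00878 and 0.00517). HLA-B, a class I heavy chain, was at 830, 955 and 1297 CPM in KO cells, against 378, 539 and 893 CPM in WT cells, groups that overlapped (0.77 ± 0.31, adjusted p = 0.133, 0.00298 with the block and 0.00702 without WT replicate 3). B2M, the class I light chain, came to 0.53 on the log2 scale (adjusted p = 0.161, 0.0219 with the block and 0.0209 without WT replicate 3). Among 19 surface ligands of T and NK cells 5 rose and 2 fell (2 to 7 and 0 to 1 with a library left out). SLAMF7 (chromosome 1, 160739057 to 160754821), a receptor best known from immune cells, had 873 counts in KO cells, against 3 in WT cells, 310 times as much (95% counting interval 106 to 1500, and 563 times without WT replicate 2). CD274, which encodes PD-L1, had a log2 change of 1.07 that did not pass (adjusted p = 0.154, 0.00434 with the block and 0.000616 without WT replicate 3). IDO1, the interferon-inducible enzyme of tryptophan breakdown, had 77 counts over the KO libraries and 0 over the WT libraries, at least 27.3-fold higher against a floor of 3 counts over the group, and at least 16.6-fold to 19.4-fold without any 1 WT library.

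Secreted inflammatory factors changed gene by gene. Of 11 tested chemokines 3 rose and 2 fell (6 and 3 with the block, 2 to 5 rising with a library left out). CCL26, an eosinophil attractant, was at 8.04, 5.61 and 5.5 CPM in KO cells, against 0.724, 0.540 and 0.306 CPM in WT cells (3.58 ± 0.36, adjusted p = 0.000694). CCL2, a monocyte attractant, rose by 2.08 (adjusted p = 0.0105). The neutrophil attractant CXCL5, in contrast, was at 0.639, 0.363 and 0.662 CPM in KO cells, against 4.62, 5.44 and 6.67 CPM in WT cells (-3.33, adjusted p = 0.000695), and the mucosal chemokine CCL28 fell by 3.03 on the log2 scale (adjusted p = 0.00043). CXCL8, another neutrophil attractant, varied with replicate number in both genotypes, at 29.1, 41.2 and 71.5 CPM in KO cells, against 1.39, 7.33 and 36.5 CPM in WT cells. Its log2 change of 1.66 did not pass (adjusted p = 0.23, 0.00253 with the block and 0.00187 without WT replicate 3). Of 17 cytokines 2 rose and 0 fell, 11.8% against the 14.9% of all tested genes. With the block the counts were 4 and 2, and with a library left out 1 to 4 and 0 to 1. IL6 was at 20, 26.5 and 16.3 CPM in KO cells, against 6.07, 7.73 and 8.14 CPM in WT cells (1.52 ± 0.23, adjusted p = 0.00425). CSF2, the growth factor of granulocytes and macrophages, was at 18.4, 17.1 and 21.5 CPM in KO cells, against 0.0557, 0.495 and 3.30 CPM in WT cells (3.94 ± 0.79, adjusted p = 0.013, and 0.058 without WT replicate 2). Of 23 genes of NF-kB signalling 2 rose and 0 fell, 8.7% against the 14.9% of all tested genes. With the block the counts were 8 and 1, and with a library left out 1 to 7 rose. TNFAIP3, which encodes the feedback inhibitor A20, had a log2 change of 1.69 (adjusted p = 0.00523).

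Within the BCL-2 family, where the inhibitor acts, 3 of 14 tested genes passed, 2 higher and 1 lower. That is 21.4%, against 14.9% of all tested genes. With the block the counts were 3 and 1, and with a library left out 2 to 4 and 1 to 2. All 3 belong to the pro-death side, as do most of the tested members named here. BAK1 (chromosome 6, 33572547 to 33580293), a pore former that BCL-XL restrains, was at 61.3, 61.2 and 53.9 CPM in KO cells, against 24.9, 27 and 22.1 CPM in WT cells. The groups were far apart, with a log2 change of 1.25 ± 0.16 (adjusted p = 0.00168), and of 0.82 in DMSO. PMAIP1 (chromosome 18, 59899996 to 59904305), which encodes the BH3-only protein NOXA, was at 200, 171 and 192 CPM in KO cells, against 47.9, 54.5 and 97.5 CPM in WT cells (1.5 ± 0.26, adjusted p = 0.00718). In DMSO PMAIP1 was at 29.4, 28.1 and 37.4 CPM in KO cells, against 26.3, 29 and 30.3 CPM in WT cells, but the test of the difference from DMSO (1.36 ± 0.31) missed the threshold (adjusted p = 0.094). BMF (chromosome 15, 40087890 to 40108892), another BH3-only gene, went the other way, at 1.17, 0.779 and 1.85 CPM in KO cells, against 5.90, 6.83 and 8.57 CPM in WT cells (-2.50 ± 0.35, adjusted p = 0.00287). BCL2L1, the gene of the drug's target, was at 268, 310 and 361 CPM in KO cells, against 211, 304 and 400 CPM in WT cells, overlapping groups with a log2 change of 0.04 ± 0.24 (adjusted p = 0.934). The pro-survival relatives MCL1 (-0.25 ± 0.18, adjusted p = 0.382) and BCL2 (-0.33 ± 0.30, 0.512) did not pass, and BCL2L2, BCL-W, at 0.45 ± 0.18 did not pass either (0.121, 0.037 with the block and 0.0357 without WT replicate 3). BAX, BID, BCL2L11, which encodes BIM, and BBC3, which encodes PUMA, had log2 changes of -0.10, 0.32, -0.64 and 0.04, none of which passed. BCL2L11 passed without WT replicate 3 (adjusted p = 0.00752). Among 28 genes of the apoptosome, caspases and inhibitors of apoptosis 0 passed in either direction by edgeR (4 at an unadjusted p under 0.05), 1 passed by voom and 2 by DESeq2, and 2 rose and 2 fell with the block. BIRC3, an NF-kB-induced inhibitor of apoptosis, came nearest at 1.42 (adjusted p = 0.056, 0.00255 with the block and 0.000148 without WT replicate 3). Centred on the chromosomal window medians described below, 2 of the 28 rose and 0 fell. BIRC3 was among them, at 1.91 (adjusted p = 0.0251 by edgeR).

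**Figure D3:**
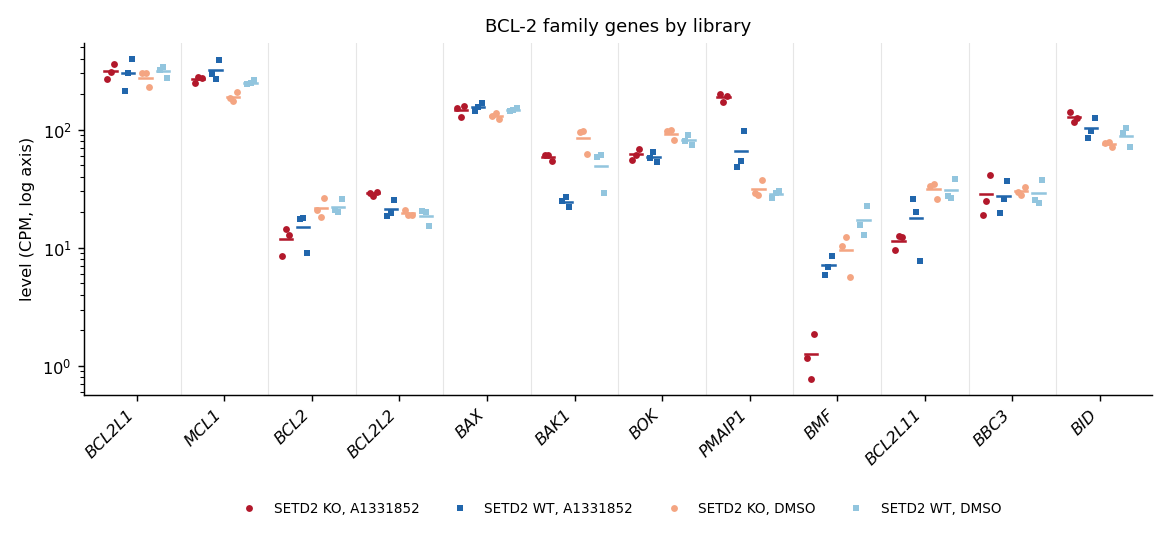
Level of BCL-2 family genes in each library (CPM, log axis), from left to right for each gene KO and WT cells under A1331852 and KO and WT cells in DMSO, with 1 point per library and a bar at the group mean. BAK1 and PMAIP1 lie higher and BMF lower in all 3 KO libraries than in the WT libraries under A1331852, while the groups overlap for BCL2L1.

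Part of the difference followed chromosomal position. Of 154 windows of 20 Mb with at least 20 tested genes, 35 had a median log2 change of 0.2 or more in size before rounding, 29 lower and 6 higher in KO cells, and these 35 had the same sign and at least that size in DMSO. The window from 40 to 60 Mb of chromosome 10, just under that size at -0.20, had -0.05 in DMSO. Across windows the medians under A1331852 and in DMSO, which come from separate libraries of the same 2 populations, had a Pearson r of 0.934 and a Spearman rho of 0.828. Genes of chromosome 1 had a median of -0.28 (-0.31 in DMSO), with 55 higher and 249 lower of 1558, and those of chromosome 10 one of -0.35 (-0.36), with 20 higher and 111 lower of 625. Chromosome 11 was split, with 0.49 for 299 genes in its first 60 Mb (84 higher and 4 lower) and -0.33 for 504 genes beyond (19 and 101). Chromosome 16 was split too, with 0.43 for 382 genes in its first 40 Mb (83 and 9) and -0.39 for 297 genes beyond (5 and 60). The 35 windows held 3807 tested genes, 847 of them called, of which 731 had the direction of their window. The windows were picked by these same medians, so this count is a description. With each gene centred on the median of its window in DMSO, 1644 genes were called, 894 higher and 750 lower, of which 1501 were among the 2278. DNA copy number was not measured.

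**Figure D4:**
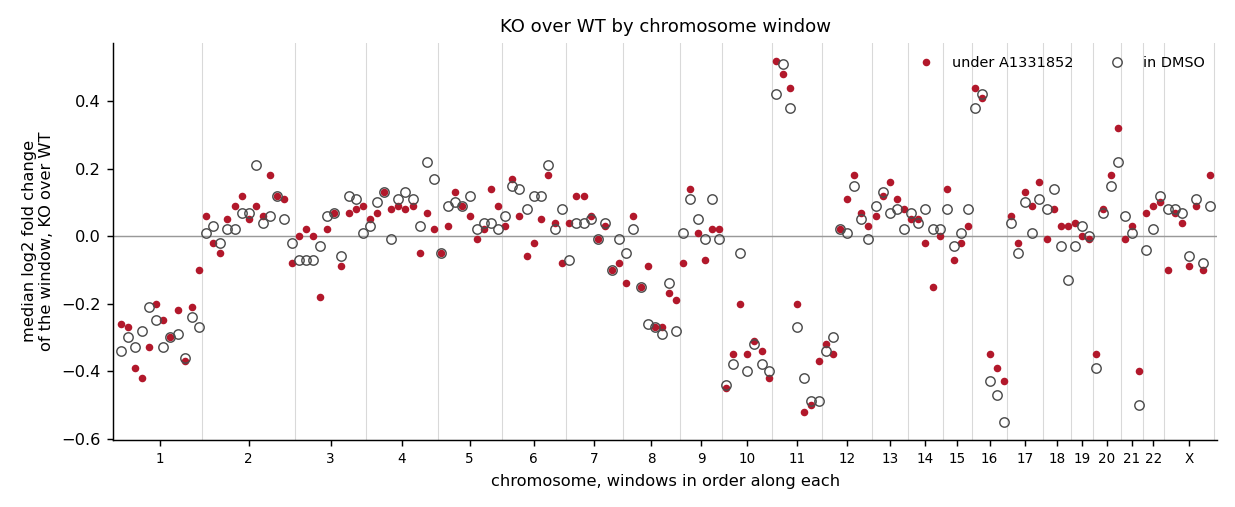
Median log2 fold change of KO over WT cells per 20 Mb window, in genome order, under A1331852 (filled points) and in DMSO (open points). The same stretches lie off 0 in both, with r = 0.934 between the medians, which share no library.

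Genes of the extracellular matrix were among those with the largest changes, in both directions. COL12A1 (chromosome 6, 75084326 to 75206267), a collagen that decorates fibrils, was at 21.1, 29.5 and 20.9 CPM in KO cells, against 0.557, 0.360 and 0.367 CPM in WT cells (5.79 ± 0.30, adjusted p = 4.92e-05). COL5A2, a chain of fibril-forming collagen V, fell by 1.65 (adjusted p = 0.00361), and 4 of 20 collagens rose and 4 fell in all (2 to 7 and 1 to 5 with a library left out). MMP2 (chromosome 16, 55389700 to 55506691), a gelatinase, was at 0.160, 0.0519 and 0.0662 CPM in KO cells, against 7.35, 6.74 and 8.2 CPM in WT cells (-6.20 ± 0.40, adjusted p = 0.00011). The interstitial collagenase MMP1 (chromosome 11, 102789401 to 102798160) was at 10.6, 8.52 and 3.38 CPM in KO cells, against 0.612, 0.315 and 0.306 CPM in WT cells (4.18 ± 0.52, adjusted p = 0.00159). MMP13, another collagenase, and MMP10, a stromelysin, were higher too, MMP13 by 2.93 on the log2 scale (adjusted p = 0.00383), and MMP10 with 117 counts in KO cells, against 2 in WT cells, a ratio of 62.2 (16.8 to 520). The aggrecan-cleaving ADAMTS5 fell by 3.75 (adjusted p = 0.00251), and 8 of 28 matrix-cleaving and collagen-modifying enzymes rose while 5 fell (4 to 9 and 3 to 6 with a library left out). Laminins, the trimers of basement membranes, gave 5 of 10 higher and 0 lower (3 to 5 higher with a library left out). LAMB3, the beta chain of epithelial laminin, was at 323, 248 and 250 CPM in KO cells, against 37.6, 34.9 and 103 CPM in WT cells (2.22 ± 0.40, adjusted p = 0.00812), and LAMA1, an alpha chain gene, rose by 2.55. Tenascin C, TNC, was at 43.9, 53.2 and 42.5 CPM in KO cells, against 14.1, 11.3 and 7.77 CPM in WT cells (2.07 ± 0.23, adjusted p = 0.00112).

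Of 31 integrins and focal adhesion genes 7 rose and 5 fell (11 and 8 with the block, 4 to 9 and 1 to 6 with a library left out). ITGA5, the alpha chain of the fibronectin receptor, was at 531, 512 and 562 CPM in KO cells, against 163, 204 and 256 CPM in WT cells (1.36, adjusted p = 0.00291), and ITGA6, an alpha chain of laminin receptors, rose by 1.20 (0.00676). ITGA4, whose product binds VCAM1, fell by 2.84 (0.00567). Cadherins gave 3 higher and 4 lower of 18 tested genes (3 and 7 with the block, 2 and 6 after centring, 1 to 2 and 3 to 6 with a library left out). CDH4, retinal cadherin, had 697 counts in KO cells, against 1 in WT cells, a ratio of 741 (133 to 29300), and was at least 169-fold higher without WT replicate 1. Without WT replicate 2 the ratio was 450. CDH16, the kidney-specific cadherin of tubules, was at 3.14, 4.21 and 5.43 CPM in KO cells, against 25.6, 36.8 and 29.4 CPM in WT cells (-2.85 ± 0.25, adjusted p = 0.000391). DSP (chromosome 6, 7541617 to 7586714), desmoplakin, which anchors keratins to desmosomes, was at 11.8, 23.5 and 32.9 CPM in KO cells, against 0.223, 0.405 and 0.551 CPM in WT cells (5.84 ± 0.49, adjusted p = 0.000268). The desmosomal plaque gene PKP3 rose by 1.65, whereas the desmosomal cadherin DSC2 fell by 2.14. Keratins gave 4 higher and 1 lower of 11 (8 and 1 with the block, 1 to 6 and 0 to 1 with a library left out). KRT81, a hair keratin whose reads can be shared with near-identical family members, was at 36, 50 and 37.3 CPM in KO cells, against 3.06, 3.28 and 5.14 CPM in WT cells (3.43, adjusted p = 0.000206). Of 21 tight junction and polarity genes 2 rose and 5 fell (6 and 8 with the block, 1 to 4 and 4 to 6 with a library left out). CLDN4, a barrier claudin, was at 415, 338 and 469 CPM in KO cells, against 140, 150 and 215 CPM in WT cells (1.28), while the polarity gene CRB3 fell by 2.65 and the junction protein CGNL1 by 1.77. SNAI2, a repressor of epithelial genes, fell by 1.45 (adjusted p = 0.00992).

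Renal lineage factors and tubule markers divided evenly, with 6 of 25 higher and 6 lower (8 and 11 with the block, 2 to 7 and 6 to 10 with a library left out). POU3F3 (chromosome 2, 104853287 to 104858574), a POU factor of the developing nephron, was at 10.8, 7.79 and 12.3 CPM in KO cells and had 0 counts in every WT library. With 539 counts in KO cells it was at least 191-fold higher against a floor of 3 counts over the group, and at least 116-fold to 136-fold without any 1 WT library. ANPEP, an aminopeptidase of the proximal tubule brush border, was at 59.7, 52.9 and 38.0 CPM in KO cells, against 24.7, 20.7 and 19.3 CPM in WT cells (1.22, adjusted p = 0.00617). In the other direction, CD24, a surface glycoprotein of renal progenitors, was at 298, 425 and 414 CPM in KO cells, against 2164, 2189 and 866 CPM in WT cells (-2.20, adjusted p = 0.00473). The brush border peptidase MME fell by 1.82, the injury marker HAVCR1 by 1.46 and the methyltransferase NNMT, high in this carcinoma, by 1.36. PAX2, the partner of PAX8, was at 15.4, 18.4 and 16.2 CPM in KO cells, against 36.6, 36.1 and 26.8 CPM in WT cells (-0.99, adjusted p = 0.00916, and 0.0655 when centred on its stretch of chromosome 10). PAX8 did not pass (0.22, adjusted p = 0.44).

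Of 36 growth factors, receptors and binding proteins 6 rose and 2 fell (8 and 10 with the block, 3 to 11 and 2 to 6 with a library left out). The EGF receptor ligand EREG (chromosome 4, 74365145 to 74388749) was at 298, 306 and 548 CPM in KO cells, against 27.3, 30.8 and 95.5 CPM in WT cells (2.91 ± 0.50, adjusted p = 0.00648), and its relative BTC rose by 2.30, while the receptor gene EGFR had a log2 change of 0.04. The 2 that fell belong to the insulin-like growth factor system. IGFBP3 (chromosome 7, 45912245 to 45921874), which encodes the main binding protein of these factors in serum, was at 200, 389 and 473 CPM in KO cells, against 2240, 3824 and 3511 CPM in WT cells (-3.17 ± 0.35, adjusted p = 0.00101). The receptor gene IGF1R (chromosome 15, 98648539 to 98964530) was at 7.61, 11.8 and 14.2 CPM in KO cells, against 60.7, 55.1 and 42.5 CPM in WT cells (-2.23, adjusted p = 0.00114). Of 38 outputs of ERK signalling and immediate early genes 2 rose and 4 fell, 15.8% against the 14.9% of all tested genes (13 and 6 with the block, 1 to 12 and 0 to 5 with a library left out). KLF4 (chromosome 9, 107484852 to 107490482), a zinc finger factor of epithelial differentiation, was at 52.6, 65.0 and 74.5 CPM in KO cells, against 6.85, 10.1 and 19.5 CPM in WT cells (2.40 ± 0.35, adjusted p = 0.00341). EGR1, an immediate early factor, was at 3.19, 3.53 and 1.19 CPM in KO cells, against 113, 45.4 and 6.30 CPM in WT cells, where replicate 3 was far below replicate 1 (-4.35 ± 0.90, adjusted p = 0.0145, and 0.0682 and 0.058 without KO replicates 1 and 2). In the WNT pathway 3 of 27 rose and 6 fell (6 and 8 with the block, 2 to 4 and 5 to 6 with a library left out). ROR2 (chromosome 9, 91563091 to 91950228), a WNT5A receptor, was at 2.93, 3.79 and 5.30 CPM in KO cells, against 43.8, 50.5 and 45.3 CPM in WT cells (-3.55 ± 0.24, adjusted p = 0.000122), and the WNT receptors FZD3 and LRP6 fell by 2.30 and 1.14. Guidance genes gave 9 higher and 7 lower of 53 (11 and 15 with the block, 7 to 11 and 3 to 9 with a library left out). UNC5B, a netrin receptor, rose by 2.92, and EPHB1, an ephrin receptor, by 2.74. SEMA5B, a semaphorin, fell by 4.85 ± 0.45 on the log2 scale.

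All 13 mRNAs of the mitochondrial genome had negative log2 changes, with a median of -0.68, and 3 of them fell (10 with the block, 1 to 8 with a library left out). MT-CO1 (mitochondrial genome, 5904 to 7445), a catalytic subunit of cytochrome c oxidase, was at 2688, 2095 and 2273 CPM in KO cells, against 4450, 6323 and 7039 CPM in WT cells (-1.34 ± 0.22, adjusted p = 0.00582). MT-CYB, cytochrome b, fell by 1.04 on the log2 scale (adjusted p = 0.0263, and 0.1, 0.109 and 0.0654 without WT replicate 2, KO replicate 2 and KO replicate 3). In bulk RNA, fewer mitochondrial transcripts per cell and fewer cells that hold many cannot be told apart. Of 81 nuclear-encoded subunits of the respiratory chain, with a median of -0.04, 1 rose and 5 fell, 7.41% against the 14.9% of all tested genes. The counts were 4 and 14 with the block, 0 and 1 after centring, and 0 to 1 and 0 to 5 with a library left out. TFAM, the packaging factor of mitochondrial DNA, had a log2 change of -0.01, while the polymerase gene POLG rose by 0.64 (adjusted p = 0.019, and 0.0613, 0.0974 and 0.0856 without WT replicate 1, WT replicate 2 and KO replicate 2).

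Of 24 glycolysis genes 0 rose and 6 fell (1 and 8 with the block, 0 and 2 after centring on the window medians, 0 to 1 and 1 to 8 with a library left out). PFKFB3, whose product makes the activator of phosphofructokinase, was at 155, 182 and 171 CPM in KO cells, against 284, 332 and 302 CPM in WT cells (-0.85 ± 0.15, adjusted p = 0.0073, and 0.111 after centring). Of 25 HIF subunits, regulators and targets 0 rose and 4 fell, 16% against the 14.9% of all tested genes. The counts were 2 and 10 with the block, 0 and 2 after centring, and 0 to 3 and 0 to 5 with a library left out. CCND1, cyclin D1, a target of HIF2 in this carcinoma, was at 316, 352 and 488 CPM in KO cells, against 721, 1382 and 1691 CPM in WT cells (-1.72, adjusted p = 0.00878, and 0.051 without KO replicate 2). EGLN3, an oxygen-sensing hydroxylase and HIF target, fell by 1.31 on the log2 scale (adjusted p = 0.00981, and 0.0504 and 0.0545 without KO replicates 1 and 2). VEGFA, the angiogenic HIF target, did not pass at -0.35 (adjusted p = 0.649). The list of cholesterol synthesis enzymes and other SREBP targets, 36 genes, had 4 lower and 0 higher in KO cells. That is 11.1%, against 14.9% of all tested genes. After centring 1 fell, with the block 10 fell, and with a library left out 0 to 12 fell. Without replicate 3 of both groups 1 rose and 20 fell. LSS, lanosterol synthase, fell by 1.94, a call lost after centring (adjusted p = 0.0627) and without WT replicate 2, KO replicate 1 or KO replicate 2 (0.0594, 0.0755 and 0.0675). The letters TCACNCCAC of the sterol regulatory element were searched on both strands. They occurred in 0 of the 4 promoters of list members that fell and in 1 of 29 of tested list members (3.45%). Of all 27305 promoters 313 held them (1.15%). At such low shares the count of 0 in 4 promoters is no result about the genes that fell. Genes of the NRF2 antioxidant response gave 4 higher and 0 lower of 27, 14.8% against the 14.9% of all tested genes. With the block the counts were 7 and 2, and with a library left out 2 to 4 and 0 to 1. HMOX1, heme oxygenase, was at 78.9, 45.6 and 49.9 CPM in KO cells, against 15.5, 27.8 and 21.2 CPM in WT cells (1.43, adjusted p = 0.0107). SLC7A11, the cystine transporter, was at 121, 150 and 195 CPM in KO cells, against 53.6, 59.7 and 74.7 CPM in WT cells (1.31, adjusted p = 0.00528), whereas NQO1, a standard NRF2 target, had a log2 change of -0.33 that did not pass.

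Of 31 p53 targets and CDK inhibitors 0 rose and 6 fell (1 and 10 with the block, 0 to 1 and 2 to 8 with a library left out). SPATA18 (chromosome 4, 52051304 to 52097299), a p53-induced gene of mitochondrial quality control, was at 0.106, 0.104 and 0.265 CPM in KO cells, against 6.85, 7.15 and 11.7 CPM in WT cells (-5.75 ± 0.45, adjusted p = 0.000218). RRM2B, the p53-induced ribonucleotide reductase subunit, was at 32.6, 40.6 and 48.8 CPM in KO cells, against 99.8, 103 and 155 CPM in WT cells (-1.55 ± 0.23, adjusted p = 0.00337). The CDK inhibitor CDKN1A at -0.74 did not pass (adjusted p = 0.0779, 0.00215 with the block and 0.0328 without KO replicate 3), and MDM2, a p53 target on the list, had a log2 change of -0.22. Of 45 S phase and mitosis genes 0 rose and 2 fell, 4.44% against the 14.9% of all tested genes. With the block the counts were 2 and 10, and with a library left out 0 and 0 to 8. Replication-dependent histone genes gave 6 higher and 0 lower of 11 tested (2 to 6 higher with a library left out), and 54 others of the list had too few counts. Most histone mRNAs lack the poly(A) tail by which these libraries were selected. H2BC12 was at 29.1, 20.5 and 20.1 CPM in KO cells, against 5.68, 5.62 and 6.67 CPM in WT cells (1.95 ± 0.22, adjusted p = 0.00101), with a log2 change of 1.77 in DMSO. Of 20 heat shock proteins 6 rose and 0 fell (12 and 0 with the block, 2 to 9 rising with a library left out). DNAJB1, a co-chaperone of HSP70, was at 293, 241 and 186 CPM in KO cells, against 125, 101 and 102 CPM in WT cells (1.13, adjusted p = 0.00711), and HSPA1B, an HSP70 gene that shares reads with its near copy HSPA1A, rose by 1.22. Writers, readers and erasers of H3K36 methylation gave 0 higher and 3 lower of 26, 11.5% against the 14.9% of all tested genes. The counts were 0 and 0 after centring, 2 and 6 with the block, and 0 to 1 and 0 to 4 with a library left out. Of the 3 called lower, ZMYND11, a reader of the trimethyl mark that SETD2 places, fell by 0.81 on the log2 scale (adjusted p = 0.0135, 0.0667 without WT replicate 2 and 0.188 after centring on its stretch of chromosome 10). Among 27 other chromatin regulators 0 passed by edgeR in either direction (5 at an unadjusted p under 0.05), 0 passed by voom and 1 by DESeq2, and 1 rose and 4 fell with the block.

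Several genes were close to silent in 1 genotype. CLGN (chromosome 4, 140388453 to 140427661), calmegin, a chaperone best known from the testis, was at 19.1, 12.8 and 14.2 CPM in KO cells, against 0.0557, 0.135 and 0.0612 CPM in WT cells (7.34 ± 0.39, adjusted p = 4.92e-05). RTN1, a neuroendocrine reticulon, had 500 counts in KO cells, against 1 in WT cells, a ratio of 532 (95 to 21100), and was at least 108-fold higher without WT replicate 2. TRHDE, a peptidase that degrades thyrotropin-releasing hormone, rose by 5.92, and its antisense lncRNA TRHDE-AS1 by 5.57. SORT1 (chromosome 1, 109309568 to 109397918), the sorting receptor sortilin, was at 0.213, 0.519 and 0.596 CPM in KO cells, against 31.1, 29.9 and 25.7 CPM in WT cells (-6.03 ± 0.32, adjusted p = 4.92e-05). MCAM (chromosome 11, 119308529 to 119321521), a melanoma and endothelial adhesion molecule, was at 1.12, 1.4 and 1.13 CPM in KO cells, against 52.8, 66.2 and 40.9 CPM in WT cells (-5.44 ± 0.26). RARRES2, which encodes the chemoattractant chemerin, was far lower in KO cells but not close to silent there. It was at 14.2, 21.3 and 28.2 CPM in KO cells, against 398, 588 and 691 CPM in WT cells (-4.72). PAPLN, papilin, a matrix protein, had 1 count in KO cells, against 577 in WT cells, a ratio of 542 in favour of WT (97 to 21500, at least 117-fold without KO replicate 1, and a ratio of 346 without KO replicate 2). Of the larger families, zinc finger genes named ZNF gave 25 higher and 23 lower of 398 (12.1%, 54 and 57 with the block, 9 to 28 and 9 to 34 with a library left out). Solute carriers gave 13 and 21 of 188 (18.1%, 26 and 40 with the block, 4 to 20 and 9 to 25 with a library left out). HOX genes gave 5 and 0 of 31 (16.1%, 5 and 2 with the block, 1 to 5 and 0 to 3 with a library left out), among them HOXB4 at 1.12 on the log2 scale. Of all tested genes 14.9% were called. ESAM, an endothelial adhesion molecule, rose by 2.60. It was the 1 tested gene of the 10 endothelial markers, at 9.79, 4.00 and 3.91 CPM in KO cells. The summed level of that list is thus mostly its own and no separate observation. LUM, the fibroblast proteoglycan lumican, fell by 2.70 and is part of its list's sum too. The part of both genes in the matrix and adhesion results was not tested.

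Whether these differences had another size than in DMSO was tested in the 12 libraries of 786-O with batch as a term. The difference passed for 48 of 16260 genes (0.295%), 33 more positive (0.203%) and 15 more negative (0.0923%) under A1331852, and for 294 (1.81%) with replicate number as a block. Interferon-stimulated genes gave 10 of the 33. IFIT2, an RNA-binding antiviral protein, had a log2 change of 2.39 under A1331852 and -0.11 in DMSO, a difference of 2.50 ± 0.30 (adjusted p = 0.00726). OASL was higher in KO cells in both media, by 4.25 and 1.44 on the log2 scale, with a difference of 2.81 ± 0.35 (0.00736). In DMSO OASL was at 11.7, 14.1 and 7.23 CPM in KO replicates 1 to 3, against 6.52, 5.59 and 1.10 CPM in WT replicates. The ratio of KO to WT in DMSO was thus larger in replicate 3, of batch 1 like the A1331852 libraries, than in replicates 1 and 2. The largest of the 48 differences was that of MMP1, 6.44 ± 0.67 (0.00726), with log2 changes of 4.18 under A1331852 and -2.25 in DMSO. In DMSO MMP1 was at 0.837, 0.960 and 0.149 CPM in KO replicates 1 to 3, against 4.67, 4.98 and 0.195 CPM in WT replicates. The negative change in DMSO thus came from replicates 1 and 2, of batch 2, while both genotypes were near the floor in replicate 3, of batch 1. PLXNA2, a semaphorin receptor, was at 4.47, 7.32 and 6.62 CPM in KO cells, against 3.45, 5.49 and 8.26 CPM in WT cells, with a log2 change of 0.10 under A1331852, but one of -2.57 in DMSO. Of the negative differences, PDZK1 (chromosome 1, 145670852 to 145708148), a scaffold of proximal tubule transporters, was at 1.65, 11.2 and 8.68 CPM in KO cells, against 155, 147 and 65.2 CPM in WT cells, and at 109, 117 and 203 CPM in KO cells, against 136, 111 and 279 CPM in WT cells, in DMSO (difference -3.86 ± 0.66, adjusted p = 0.0364). CDH16 and CD24 also had negative differences, with log2 changes of -0.53 and 0.19 in DMSO. In DMSO CDH16 was at 22.8, 26.1 and 33.5 CPM in KO replicates 1 to 3, against 30.6, 26.6 and 74.6 CPM in WT replicates. CD24 was there at 1511, 1546 and 2471 CPM, against 1210, 1024 and 3127 CPM. SEMA5B was at 22.1, 22.6 and 22.8 CPM, against 22.8, 23.1 and 82.0 CPM. In replicate 3, of batch 1, these genes were thus lower in KO cells in DMSO too. AKR1B10, an aldo-keto reductase of the NRF2 response, had log2 changes of 1.34 under A1331852 and 3.26 in DMSO. Its call under A1331852 was lost without WT replicate 1, KO replicate 2 or KO replicate 3 (adjusted p = 0.0538, 0.0595 and 0.0501). No difference passed when only batch 1, where DMSO has a lone library per genotype, taken to vary like the other groups, was used (0 by edgeR, 284 at an unadjusted p under 0.05), nor without KO DMSO replicate 1 or 2 (1187 and 1160 unadjusted), and 497 passed without WT A1331852 replicate 3. No difference named here therefore held in all 12 fits that leave out 1 library. Those of MMP1, KRT81, OASL and IFIT2 held in the other 10 fits. Those of CDH16 and SEMA5B held in 7, being lost also without KO A1331852 replicate 2 and WT DMSO replicates 1 and 2 (adjusted p up to 0.0816). That of PLXNA2 held in 6, being lost without these and WT A1331852 replicate 2 (up to 0.122). Those of PDZK1, CD24 and AKR1B10 held in 3, 3 and 2 (up to 0.176, 0.214 and 0.191).

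**Figure D5:**
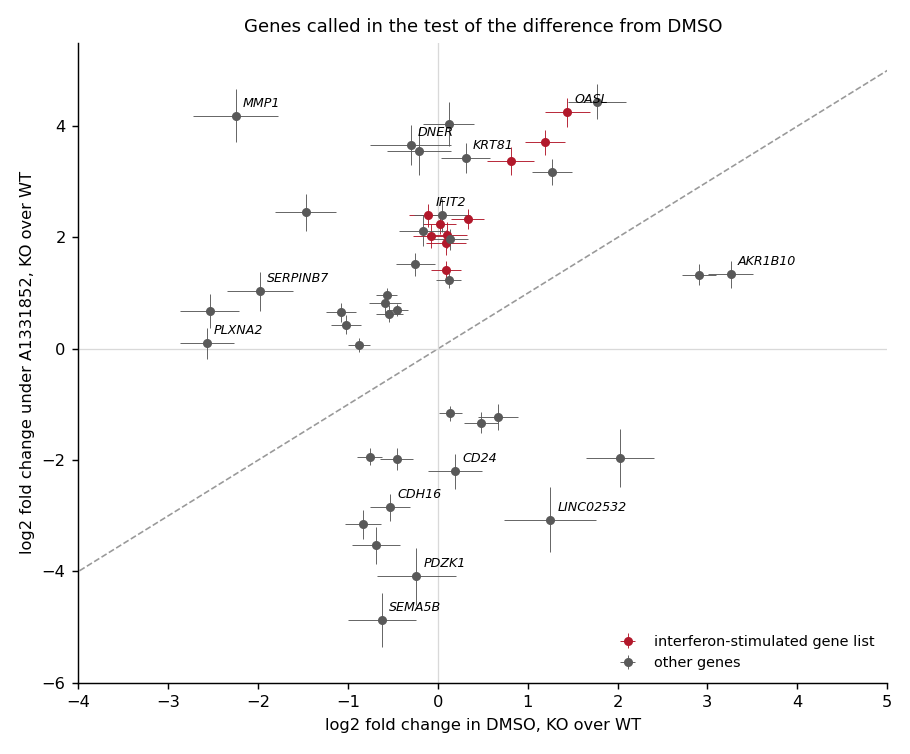
Log2 fold change of KO over WT cells under A1331852 (vertical axis) against that in DMSO (horizontal axis) for the genes whose difference passed the test, 1 point per gene with standard errors as bars, interferon-stimulated genes in red, and a dashed line of equal change. Points above the line are more positive under A1331852, MMP1 the farthest with a difference of 6.44.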

How the data were processed

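Polyadenylated RNA of 786-O cells was sequenced, per the labels' protocols. The deposited values used here were counts, 1 table per library with 60606 gene names. The authors had counted fragments over exons by gene name with featureCounts 1.5.0-p3 at strand setting 2 on STAR alignments, with GENCODE release 41, per the file headers, and the build was GRCh38 (hg38), per the submitters' processing notes, which also name MultiQC 1.7 and DESeq2. Coordinates and gene classes were added by name from GENCODE release 29 (36623 names) and RefSeq (39403 names), so a gene without a name match has none.

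Scaling (TMM over the 12 libraries of 786-O, with levels as CPM, counts set to one common library size), the low-count filter (minimum count of 10 by group), the quasi-likelihood test and adjustment by Benjamini-Hochberg, taken over every gene tested, were done with edgeR 4.0.16 in R 4.3.3. The 6 A1331852 libraries were fitted alone, without a covariate, and the difference from DMSO as an interaction in 12 libraries with batch. An adjusted p under 0.05 was a call, and "rose" and "fell" are used of calls alone. Errors are standard errors of the log2 fold change. The alternatives were other scaling and filters, limma 3.58.1 voom, DESeq2 1.42.0, a log2 threshold of 1, a replicate block, each library left out, and batch 1 alone. Leaving out replicate 3 of both groups and centring on 20 Mb window medians of the DMSO comparison were added after the data were seen. Summaries used Python 3.11.15 with pandas 2.3.3 and scipy 1.17.1.

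Replicate numbers were taken to pair the libraries: residuals of same-numbered KO and WT libraries correlated at 0.308, 0.354 and 0.578, against -0.466 to 0.289 for unlike numbers. Between replicates 1 and 2 the unlike pairs had 0.185 and 0.289, close to the like pairs. Pairing by number is therefore clear for replicate 3 alone, and results with the block rest on it. Within the A1331852 groups the mean chi-square per gene between libraries was 23.1 to 95.1, more than counting error alone gives. Within each group no library was thus merely another sequenced again. The check cannot tell separate cultures from separate preparations of the same culture. The DMSO libraries were not part of this check. Their replicates 1 and 2 lay close together within each genotype. PKP3, for example, was at 78.9, 79.0 and 45.0 CPM in KO and 31.0, 31.3 and 16.0 CPM in WT replicates 1 to 3. The difference test counts them as separate replicates and may understate the spread. In simulated counts with 200 changed genes, the KO against WT fit recovered 23.5% of 2-fold and 85.5% of 4-fold changes, with 6% and 5.52% of the calls false, in 14998 and 15020 genes. The difference test recovered 17% and 79.5%, with 10.5% and 5.36% false, in 15849 and 15898 genes. The simulated libraries were drawn independently, without batch or shared replicate effects, so these rates may not hold for the real libraries. Counting intervals (95%, exact) and floors (3 counts over the group) cover counting error only.

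The comparison, the gene lists and the naming rule were set with earlier results of these data known. The rule took a fixed set of BCL-2 family, interferon and SETD2 pathway genes, the 12 largest called rises and falls, up to 4 called rises and 4 falls per list, the 5 largest lncRNA changes each way, 4 promoters, and the 10 largest differences from DMSO each way. Examples were picked from these after their values were seen, preferring calls that held without each library. ISG15, MX2, OAS1, IDO1, PSMB8, ITGA5, ITGA6 and PAX2 lie outside the rule and were chosen after their values were seen. List members not called are named with their values. Results for a few further genes are left out here.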

Additional observations from a re-analysis of the deposited data

Results flagged for a closer look

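The size of the KO against WT change differed between A1331852 and DMSO for 48 genes, by the interaction test in 12 libraries (edgeR, adjusted p under 0.05). Among the genes described above, the log2 difference, A1331852 minus DMSO, was positive for MMP1 (6.44), KRT81 (3.12), OASL (2.81), PLXNA2 (2.68), ISG20 (2.57), IFIT2 (2.50), KLF4 (2.35), ISG15 (1.96) and IL6 (1.77). It was negative for SEMA5B (-4.24), PDZK1 (-3.86), CD24 (-2.39), CDH16 (-2.32) and AKR1B10 (-1.93). KRT81 was at 4.39, 4.52 and 2.77 CPM in KO cells in DMSO, against 4.08, 4.76 and 1.10 CPM in WT cells in DMSO. IL6 was at 4.79, 4.55 and 4.46 CPM in KO cells in DMSO, against 5.69, 7.02 and 3.9 CPM in WT cells in DMSO. DMSO replicates 1 and 2 came from batch 2, which held no A1331852 library, so the test leans on the batch term, and 0 genes passed in batch 1 alone. Within each genotype, DMSO replicates 1 and 2 also lay close together, so the test may understate the spread. With 1 of the 12 libraries left out, the differences of ISG20, ISG15, IL6 and KLF4 passed in 7, 6, 4 and 2 fits.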

How the results depend on the processing

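For KO against WT under A1331852 the 2278 calls became 4791 with the replicate block, 4587 with 12 libraries and batch, 4259 without replicate 3 of both groups, 3569 with no filter on low counts, 389 against a log2 threshold of 1, and 905 to 3254 with 1 library left out. For the difference from DMSO the 48 calls became 294 with the replicate block, 371 with DESeq2, 655 with no filter on low counts, 0 in batch 1 alone (284 unadjusted), and 0 to 497 with 1 library left out (10 without WT DMSO replicate 1 or 2, 16 without KO A1331852 replicate 2, 24 and 31 without WT A1331852 replicates 2 and 1, 87 without DMSO replicate 3 of either genotype). The causes were not tested. Both counts stayed within 1.5 times under the other scaling methods, voom and a filter at a mean of 50 counts, and so did the first under DESeq2 (3048). Of 105 called genes named above, 45 lost the call against the log2 threshold of 1, 5 after centring and 1 with voom. The replicate block changed no other call of a named gene than those given beside the results. At this depth and spread 2-fold changes are often missed, so genes not called cannot be read as equal. No called direction of a named gene reversed under any of these alternatives.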
